A study of Homo sapiens with 6 samples.

Results

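The genes described here are 10 regulators of chromatin and DNA methylation: EZH1, EZH2, SUZ12, EED, KDM6A, KDM6B, PHF6, DNMT3A, TET1 and TET2. The list was drawn up around Polycomb repressive complex 2 and chromatin regulators mutated in T-cell acute lymphoblastic leukaemia (T-ALL). Mutation of each gene was not examined here. The 10 genes were chosen by gene name, and each was found once among the 58735 genes of the deposited tables. All 10 passed the filter on low counts that left 16926 genes for testing. The data are RNA sequencing libraries of MOLT-3, an established human T-ALL cell line, in 2 groups of 3: cells given the solvent DMSO, and cells given compound E. Compound E is a gamma-secretase inhibitor, which blocks the cleavage that frees the active intracellular part of NOTCH receptors, and the study used it to look for genes under NOTCH1 control that might bear on chemosensitivity. The labels used here name neither dose nor treatment time. All libraries come from 1 cell line. Nothing in the labels says that replicates came from separate cultures, so the p-values reflect the spread of these 6 libraries alone, and that spread may be technical.

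Polycomb repressive complex 2 (PRC2) silences genes by methylating lysine 27 of histone H3. Its catalytic subunit is EZH2 or the related EZH1, and the enzyme works only when bound to SUZ12 and EED. KDM6A and KDM6B remove the same mark. DNMT3A places new methyl groups on cytosine in DNA, and TET enzymes oxidise them, which starts their removal. In T-ALL, loss of PRC2 subunits often accompanies activating NOTCH1 mutations, and active NOTCH1 is known to displace PRC2 from some of its targets.

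The library totals were 17316138 to 19845114 counts, and correlations of log2 CPM over the tested genes were 0.993 to 0.994 within groups and 0.983 to 0.984 between them. All 10 T-lymphoid markers checked were tested, with a summed level of 3108 to 3153 CPM with DMSO and 3924 to 3983 CPM with compound E. RAG1, of the antigen receptor recombinase, carried that rise, from 546 to 1583 CPM on average. The other 9 summed to 2570.4 to 2603 CPM with DMSO and 2341 to 2379 CPM with compound E, which is lower. The 6 B-cell markers summed to 14.8 to 16.2 and 13.8 to 15.6 CPM, most of it CD79A, with MS4A1 and PAX5 at 0 counts in every library. The 10 myeloid and erythroid markers summed to at most 4.68 CPM, with MPO at 0. The 8 stromal and epithelial markers summed to 67.0 to 71.1 and 72.0 to 73.1 CPM. Most of it was PECAM1, an endothelial gene that leukocytes also express. PECAM1 averaged 54.1 CPM with DMSO and 60.5 CPM with compound E. COL1A1 had 11.5 and 9.63 CPM, and COL1A2 and COL3A1 had 0 counts in every library. Of the T-lymphoid markers 3 were called higher and 6 lower, and the part of this shift in the results below was not tested. The 5 NOTCH control genes, HES4, DTX1, NOTCH3, IL7R and HES1, were all lower with compound E, with log2 fold changes of -4.90 (HES4) to -2.16 (HES1). CPM here are library-scaled counts (TMM normalised CPM). Fold changes are compound E over DMSO on the log2 scale with their standard error (SE), from edgeR's quasi-likelihood test, and genes counted as called when their p, with Benjamini-Hochberg adjustment across the 16926 tested, was under 0.05.

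Promoter sequences of 9 of the 10 genes were matched in RefSeq on GRCh38.p14. The 250 bases before the transcription start are shown for the PRC2 genes EZH1, EZH2 and SUZ12, since EZH1 and EZH2 are alternative enzymes of 1 complex, and for TET1 and TET2, whose levels lie far apart. Each is written 5′ to 3′ on its gene's strand. Capitals mark matches to a motif of E2F factors, the cell cycle regulators that drive EZH2 in many cell types (TTTGGCGC, TTTCCCGC, TTTGGCGG, TTTCCCGG or TTTCGCGC on either strand), or to that of RBPJ, the DNA-binding partner of NOTCH (TGGGAA on either strand).
EZH1, chr17:42745041-42745290, minus strand: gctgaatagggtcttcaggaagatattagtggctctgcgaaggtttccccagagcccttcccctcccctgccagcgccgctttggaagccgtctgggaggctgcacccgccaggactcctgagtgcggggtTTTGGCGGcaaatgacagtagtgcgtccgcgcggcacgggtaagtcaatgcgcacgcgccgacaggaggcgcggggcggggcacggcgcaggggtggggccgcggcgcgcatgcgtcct
EZH2, chr7:148884292-148884541, minus strand: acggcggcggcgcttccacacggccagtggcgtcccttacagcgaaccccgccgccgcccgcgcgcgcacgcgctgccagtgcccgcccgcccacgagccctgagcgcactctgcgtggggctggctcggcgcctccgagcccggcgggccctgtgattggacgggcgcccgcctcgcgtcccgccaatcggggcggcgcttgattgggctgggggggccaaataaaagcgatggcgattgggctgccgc
SUZ12, chr17:31936757-31937006, plus strand: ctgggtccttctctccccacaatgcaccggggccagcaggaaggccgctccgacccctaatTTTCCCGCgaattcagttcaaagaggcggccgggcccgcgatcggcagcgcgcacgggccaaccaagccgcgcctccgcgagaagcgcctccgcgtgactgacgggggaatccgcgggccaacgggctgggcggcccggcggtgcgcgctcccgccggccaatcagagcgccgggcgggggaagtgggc
TET1, chr10:68560087-68560336, plus strand: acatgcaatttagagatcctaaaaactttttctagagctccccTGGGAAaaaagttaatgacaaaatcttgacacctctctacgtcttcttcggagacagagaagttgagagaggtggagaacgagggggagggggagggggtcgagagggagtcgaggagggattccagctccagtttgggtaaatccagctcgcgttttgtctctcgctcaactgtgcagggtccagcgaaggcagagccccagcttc
TET2, chr4:105145625-105145874, plus strand: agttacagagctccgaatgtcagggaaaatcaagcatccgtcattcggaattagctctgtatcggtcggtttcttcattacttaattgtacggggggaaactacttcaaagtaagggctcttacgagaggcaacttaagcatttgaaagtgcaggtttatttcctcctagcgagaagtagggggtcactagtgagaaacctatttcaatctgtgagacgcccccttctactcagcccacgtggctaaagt

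An E2F motif lay in the 250 bases of EZH1, 119 bases before the start, and of SUZ12, 189 bases before it. It is present in 5.08% of 17360 promoters of that length. EZH2 had none there, but a search that also took the first 50 transcribed bases, added after the sequences were seen, found 1 at positions 2 to 9 from the start, in gatggcgattgggctgccgcgTTTGGCGC. In that longer window 5.93% of promoters held the motif. The RBPJ motif was in the windows of TET1 and KDM6B and in 20.5% of all promoters. TET1 and TET2 had 51.6% and 45.6% G and C in these bases, against a median of 61.2% over the 17360 promoters, and EZH2 and SUZ12 had 75.6% and 72.8%. The RefSeq start of TET1 lies 319 bases from the 5′ end given in the deposited tables, and those of EZH1, EZH2, SUZ12 and TET2 lie within 30 bases of it. A match is a description of letters, not a bound site.

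Levels can be compared between genes only per length, and for that the FPKM deposited by the authors were used. The length is that of all annotated exons of a gene together, 4522 bases for EZH2, 7016 for EED and 16474 for TET2. Exons absent from the transcripts present lower a gene's FPKM. Orders, folds and shares between genes therefore depend on this choice of length. EZH2 was the most abundant of the 10, at 74.6 ± 0.167 FPKM with DMSO, followed by its partner SUZ12 at 41.0 ± 0.631 FPKM (SD, n = 3). KDM6B, at 19.5 ± 0.0646 FPKM, PHF6, at 15.9 ± 0.0639, EZH1, at 13.2 ± 0.278, and DNMT3A, at 12.1 ± 0.287, came next. KDM6A had 6.47 ± 0.0973 FPKM, EED 4.75 ± 0.117 and TET1 2.07 ± 0.0543. TET2 was almost silent, at 0.0853 ± 0.0228 FPKM, 24.3-fold below TET1. In CPM, which take no account of length, TET1 had 19.4 and TET2 1.42 on average with DMSO. In each group the libraries of neighbours in this order did not overlap, for all 9 pairs. With compound E the order differed in 1 place, with DNMT3A at 12.8 ± 0.191 above EZH1 at 11.9 ± 0.334 FPKM.

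**Figure D1:**
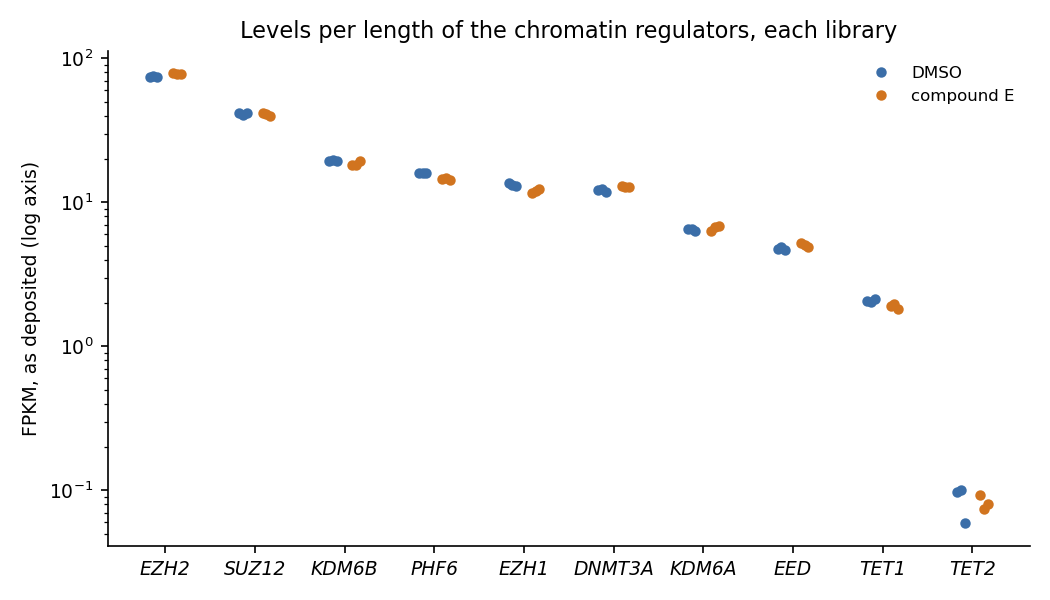
FPKM of each of the 10 genes in each library, on a log axis, with 3 DMSO libraries in blue and 3 compound E libraries in orange. EZH2 stands highest at 74.4 to 78.7 FPKM, TET2 lowest at 0.0590 to 0.1001 FPKM, and the 2 groups of a gene lie close together.

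Compound E changed the expression of these genes little. Of the 10, 2 were called, EZH1 and PHF6, both lower, by 1.12-fold and 1.11-fold, and 0 were called higher. Over all tested genes 38.3% were called, 19.4% lower and 18.9% higher, and among the 8201 genes at least as abundant as TET1 the share was 53.1%. The log2 fold changes of the 10 ran from -0.16 to 0.08, within the lower and upper quartiles of all tested genes, -0.19 and 0.16. Their median size was 0.08 in either direction, beside 0.17 over all tested genes. In 7 of the 10 every library of 1 group lay above every library of the other in CPM, against 46.8% of tested genes. In bulk RNA, fewer cells expressing a gene and less RNA per cell cannot be told apart.

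**Figure D2:**
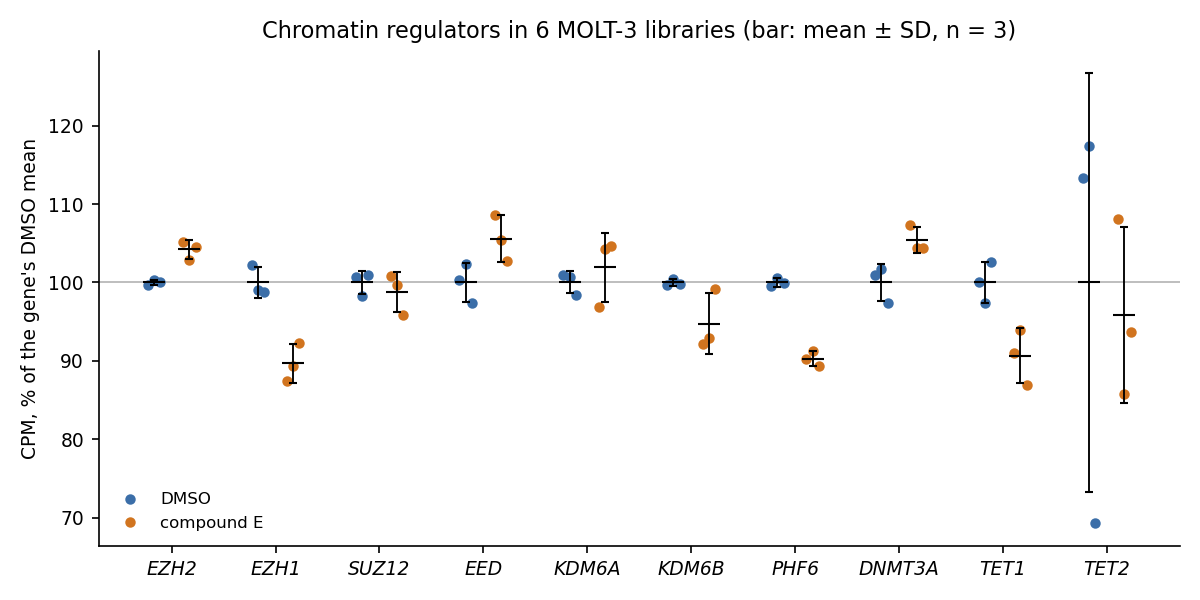
CPM of each gene in each library as a percentage of that gene's DMSO mean, with DMSO in blue, compound E in orange, and bars for the mean ± SD of 3 libraries. The compound E libraries of EZH1, PHF6, TET1 and, narrowly, KDM6B lie below 100% and apart from DMSO. Those of EZH2, EED and DNMT3A lie slightly above 100% and also apart from DMSO, and TET2 scatters most.

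EZH1 was lower with compound E. Its level was 95.4, 92.4 and 92.2 CPM in DMSO replicates 1 to 3 and 81.6, 83.4 and 86.1 CPM in compound E replicates 1 to 3. The groups did not overlap. EZH1 fell 1.12-fold, with a log2 fold change of -0.16 ± 0.0379 (SE) and an edgeR adjusted p of 0.000907. EZH2, the main methyltransferase of dividing cells, had 339, 342 and 341 CPM with DMSO and 358, 350.2 and 356 CPM with compound E. All 3 compound E libraries were above all DMSO libraries, but the difference of 0.059 ± 0.0263 did not pass the threshold (adjusted p = 0.0730 in edgeR). EZH2 did pass with limma-voom (adjusted p = 0.0477) and with limma on the deposited FPKM (0.0345 to 0.0410), at a similar size.

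EZH1 was lower, while the small rise of EZH2 did not pass in edgeR, and the make-up of the pair was computed per library. EZH1 was 15.4%, 14.9% and 14.9% of the summed EZH1 and EZH2 FPKM with DMSO, and 12.9%, 13.4% and 13.5% with compound E. The mean share went from 15.1% ± 0.291 to 13.2% ± 0.357 (SD, n = 3), with no overlap between groups. It is a description, since it is built from 2 members, and was not tested.

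SUZ12 and EED, the subunits without which the enzyme does not work, did not pass. The histone-binding subunits RBBP4 and RBBP7 were called higher and are given below with the PRC2 partners. SUZ12, needed for the stability of PRC2, had 273, 267 and 274 CPM with DMSO and 273, 270.0 and 259.9 CPM with compound E. The groups overlapped, and the log2 fold change was -0.018, with a 95% interval of -0.076 to 0.039. EED, the subunit that binds methylated lysine 27, had 33.7, 34.4 and 32.8 CPM with DMSO and 36.5, 35.5 and 34.5 CPM with compound E. The groups did not overlap, though only narrowly, and the log2 fold change of 0.077 had an interval of -0.033 to 0.19 (adjusted p = 0.284, edgeR). The summed EZH1 and EZH2 FPKM was 2.14 ± 0.0342 times that of SUZ12 with DMSO and 2.21 ± 0.0699 times with compound E. Relative to EED it was 18.5 ± 0.430 and 17.9 ± 0.551 times (SD, n = 3). These are ratios of mRNA per length and not of proteins. SUZ12 has a related pseudogene, SUZ12P1, with 630 to 788 counts per library, a log2 fold change of -0.07 and adjusted p of 0.307. No source here states how reads matching both were counted, so the SUZ12 level carries that uncertainty.

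The demethylases of lysine 27 also stayed within small bounds. KDM6A (UTX), an X-linked tumour suppressor of T-ALL, had 47.0, 46.9 and 45.8 CPM with DMSO and 45.1, 48.6 and 48.7 CPM with compound E. The groups overlapped, and the interval of its log2 fold change was -0.072 to 0.13 around 0.027. KDM6B (JMJD3), which has been described as a coactivator for NOTCH1 in T-ALL, had 143, 144 and 143 CPM with DMSO and 132, 133 and 142 CPM with compound E. All DMSO libraries were higher, with compound E replicate 3 just below them, and the difference of -0.078 ± 0.0335 did not pass (adjusted p = 0.0637, edgeR). Without compound E replicate 3 it was -0.11 and passed (adjusted p = 0.00633), and it also passed with upper quartile scaling (0.0240) and the stricter filter (0.0238). KDM6B made up 75.1% ± 0.256 of the summed FPKM of the pair with DMSO and 73.7% ± 0.710 with compound E (SD, n = 3).

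PHF6, an X-linked zinc finger protein that binds the chromatin remodelling complex NuRD and is among the genes most often mutated in T-ALL, showed the cleanest separation. It had 128, 129.7 and 129 CPM with DMSO and 116, 118 and 115 CPM with compound E. No libraries overlapped. PHF6 fell 1.11-fold, with a log2 fold change of -0.15 ± 0.0331 (SE) and an edgeR adjusted p of 0.000381. EZH1 and PHF6 passed in all 17 alternative analyses, with log2 fold changes of -0.18 to -0.14 and -0.16 to -0.13 and adjusted p of at most 0.0297 and 0.00781.

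**Figure D3:**
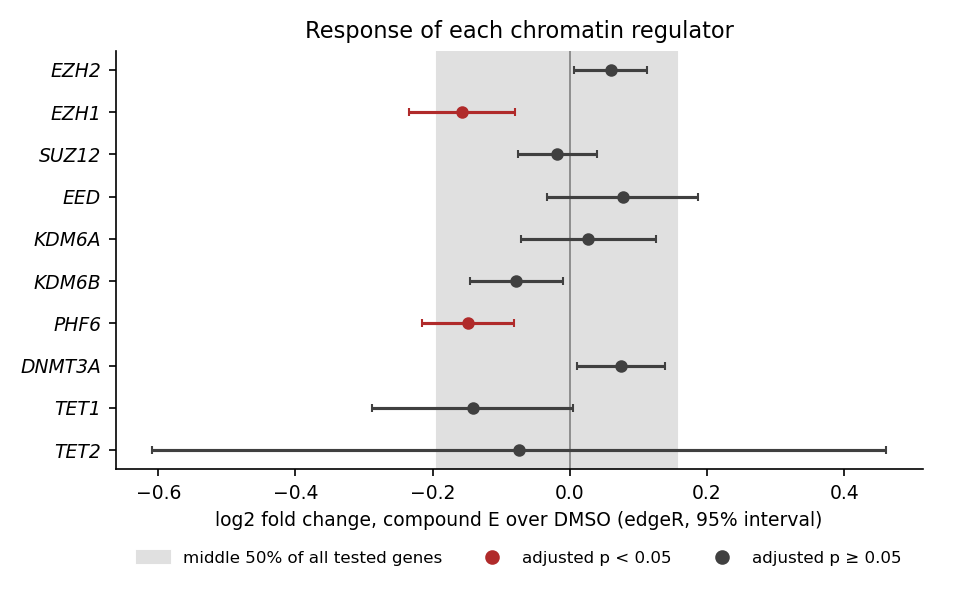
Log2 fold change of each gene, compound E over DMSO, with its 95% interval from edgeR. Red points passed an adjusted p of 0.05, and the grey band runs from the lower to the upper quartile of all tested genes, -0.19 to 0.16. EZH1 and PHF6 are the red points, and the interval of TET2 is the widest of the 10, from -0.61 to 0.46.

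Among the DNA methylation genes, DNMT3A had 148, 149 and 143 CPM with DMSO and 157, 153 and 153 CPM with compound E. The groups did not overlap, and the log2 fold change of 0.075 ± 0.0319 did not pass (adjusted p = 0.0619, edgeR). Without compound E replicate 3 it passed narrowly, at 0.082 (adjusted p = 0.0486). TET1 had 19.4, 18.9 and 19.9 CPM with DMSO and 17.7, 18.3 and 16.9 CPM with compound E. All DMSO libraries were higher. The log2 fold change of -0.14 was close in size to those of EZH1 and PHF6, but with 318 to 375 counts per library its interval was wider, -0.29 to 0.0050, and it did not pass (adjusted p = 0.123, edgeR).

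TET2, a tumour suppressor of blood cells, was counted 31, 33 and 17 times in the DMSO libraries and 28, 22 and 25 times in the compound E libraries. Its level was thus 1.42 ± 0.378 and 1.36 ± 0.160 CPM (SD, n = 3), below all but 17.7% of tested genes. The lowest count, 17 in DMSO replicate 3, has an exact 95% Poisson interval of 9.90 to 27.2, which covers counting error only and takes in 2 of the 3 compound E counts, 22 and 25. The interval of the log2 fold change, -0.61 to 0.46, allows a change in either direction, so none was detectable at this depth. Without DMSO replicate 1 or 2 the sign was positive, at 0.022 and 0.057. TET1 was 96.0% ± 1.10 of the summed TET1 and TET2 FPKM with DMSO and 95.8% ± 0.522 with compound E. TET3, the other enzyme of the family, stood at 12.5 ± 0.327 FPKM with DMSO and 11.8 ± 0.277 with compound E, so it was the most abundant of the 3.

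The 10 genes lie on chromosomes 2 (DNMT3A), 4 (TET2), 7 (EZH2), 10 (TET1), 11 (EED), 17 (SUZ12, EZH1 and KDM6B) and X (KDM6A and PHF6). On GRCh38, EZH1 (ENSG00000108799) spans 42700275 to 42745049 on the minus strand and PHF6 (ENSG00000156531) spans 134373253 to 134428791 on the plus strand. EZH2 (ENSG00000106462) spans 148807383 to 148884321 on the minus strand and TET2 (ENSG00000168769) 105145875 to 105279816 on the plus strand. Exons of other genes cover under 1% of the exon bases of each of the 10. TET2-AS1, on the opposite strand within TET2, had 0 counts in every library. The pseudogene EZH2P1 had at most 2 counts. Counts are sums over all exons of a gene and do not say which transcript changed.

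EZH1 had the largest fall among the called members, and the genes most like it in pattern over the 6 libraries were looked up among 10116 protein-coding genes of at least 5 CPM. They were PSIP1, a chromatin reader, PFAS, of purine synthesis, and GOT2, the mitochondrial aspartate aminotransferase. Their Euclidean distances in centred log2 CPM were 0.0271, 0.0299 and 0.0300, and their log2 fold changes were -0.17, -0.16 and -0.14. No member was called higher, so no such search was made for a rise.

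The accessory subunits of PRC2 steer the complex to its targets. Of 10 tested PRC2 partners 4 were called higher and 2 lower, 60% in all, beside 53.1% of the genes at least as abundant as TET1. Their median log2 fold change was 0.0021, beside -0.0034 over all tested genes, and their median size in either direction was 0.16, beside 0.17. JARID2, which marks one form of PRC2 and helps to recruit it, had 194, 189 and 193 CPM with DMSO and 315, 327 and 329 CPM with compound E. JARID2 rose 1.69-fold, by 0.76 ± 0.0288 (SE) on the log2 scale, with an edgeR adjusted p of 2.20e-23. PHF19, a Polycomb-like protein that reads methylated lysine 36 and belongs to the other form of PRC2, had 71.6, 68.1 and 71.6 CPM with DMSO and 100.003, 94.2 and 99.8 CPM with compound E. PHF19 rose 1.39-fold, by 0.48 ± 0.0395 (adjusted p = 5.92e-13, edgeR). Neither gene's groups overlapped. The histone-binding subunit RBBP7 rose by 0.21, and RBBP4, named after its values were seen, rose by 0.16. AEBP2, which often accompanies JARID2, fell by 0.21 on the log2 scale and EPOP, found with the Polycomb-like proteins, by 0.16. EPOP lost its call with DESeq2 (adjusted p = 0.0740), on FPKM (0.0704 to 0.0998) and without compound E replicate 1 (0.0825). The other Polycomb-like genes, MTF2 at 0.0055 and PHF1 at -0.0013, did not pass.

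PRC1, the second Polycomb complex, places ubiquitin on histone H2A. Of its 22 tested subunits 7 were called higher and 6 lower, 59.1% in all, with a median of 0.0095. Over all tested genes 38.3% were called, and 53.1% of those at least as abundant as TET1. CBX2, a reader of methylated lysine 27, rose by 0.28, KDM2B, which brings a variant PRC1 to CpG islands, by 0.21, and CBX6 by 0.14. PCGF5, of variant PRC1, fell by 0.43 on the log2 scale. PCGF2 (MEL18) fell by 0.79, from 19.6 ± 0.897 to 11.3 ± 1.43 CPM (SD, n = 3), but 45.7% of its exon bases are shared with other genes, so its counts are uncertain. BMI1, its paralog, at 0.07, and the catalytic subunits RNF2, at -0.11, and RING1, at -0.05, did not pass.

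The machinery that removes ubiquitin from H2A had 3 of 11 tested genes higher and 4 lower. That is 63.6% in all, beside 38.3% of all tested genes and 53.1% of those at least as abundant as TET1. HCFC1 (0.19), ASXL1 (0.15) and FOXK2 (0.13) rose. OGT, a sugar transferase bound by the BAP1 complex, fell by 0.35, MBD6 by 0.33 and FOXK1 by 0.14 on the log2 scale. FOXK1 lost its call with DESeq2 (adjusted p = 0.104), on FPKM (0.106 to 0.134) and without DMSO replicate 2 (0.0688). BAP1 itself stood at -0.0070 and did not pass. Neither did the other listed H2A deubiquitinases, USP16 at -0.06 and MYSM1 at 0.0066.

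KDM6A works within the KMT2C and KMT2D complexes, which methylate lysine 4 of histone H3 at enhancers. Of 9 tested genes of these complexes 5 were called higher and 1 lower, 66.7% in all, with a median of 0.17. KMT2C (0.17), WDR5 (0.18) and RBBP5 (0.22) rose, NCOA6 fell by 0.18 on the log2 scale, and KMT2D, at 2.47e-05, did not pass. Of 10 genes of NuRD, the complex bound by PHF6, 5 were called higher and 1 lower, 60% in all. Both shares stand beside 53.1% of the genes at least as abundant as TET1. Over all tested genes 18.9% were called higher and 19.4% lower. MTA2 (0.34), HDAC1 (0.17) and CHD4 (0.26) rose, and CHD3, an alternative remodelling enzyme to CHD4, fell by 0.26. Other genes share 53.5% of the exon bases of CHD4, so its counts are uncertain.

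Of 11 tested genes of DNA methylation 7 were called higher and 1 lower, 72.7% in all, with a median of 0.12. Of the genes at least as abundant as TET1 53.1% were called. Over all tested genes 18.9% were called higher and 19.4% lower. MBD2 and MBD4, named after their values were seen, passed narrowly (edgeR adjusted p = 0.0449 and 0.0486). DNMT3B, the paralog of DNMT3A, rose by 0.35, from 91.6 ± 2.36 to 117 ± 3.03 CPM (SD, n = 3). UHRF1, which brings DNMT1 to newly copied DNA, rose by 0.20 and MBD1 by 0.18, while HELLS, a remodelling enzyme, fell by 0.15 on the log2 scale. The number called higher was 5 with library size alone, upper quartile scaling, the stricter filter, DESeq2 or the replicate block, 5 to 7 with 1 library left out, and 4 with limma on FPKM. DNMT1, at -0.04, did not pass. For DNA demethylation the counts were 4 higher and 2 lower of 10 tested, 60% in all, beside the same 53.1%. IDH1, which makes the 2-oxoglutarate that TET and KDM6 enzymes consume, rose by 0.50, CXXC5 by 0.47 and the glycosylase gene TDG by 0.15. IDH2, the paralog of IDH1, did not pass, at 0.04 (adjusted p = 0.187, edgeR). Its level was 173 ± 1.29 FPKM with DMSO, beside 4.17 ± 0.205 FPKM for IDH1 (SD, n = 3). APEX1, of base excision repair, fell by 0.20 and TET3 by 0.09. TET3 lost its call in 9 of 17 alternative analyses, with an adjusted p of up to 0.198.

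Of 15 genes listed as other chromatin regulators mutated in T-ALL 5 were called higher and 1 lower, a share of 40%, with a median of 0.05. The list came from general knowledge, and mutation of its genes was not examined here. HDAC7, a class IIa histone deacetylase of thymocytes, rose by 0.64, from 200 ± 3.75 to 311 ± 11.2 CPM (SD, n = 3). BCOR, of a variant PRC1, rose by 0.35 and the acetyltransferase gene EP300 by 0.15, and USP7 fell by 0.15. These lists were chosen with earlier results of these data known. Their shares called, mostly 59.1% to 72.7%, are to be read beside the 53.1% among genes of at least the abundance of TET1. TET1 lies above only 51.5% of tested genes in CPM, and many listed genes are more abundant, such as UHRF1 at 1021 CPM with DMSO. No share was computed for genes matched to the lists in abundance.

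**Figure D4:**
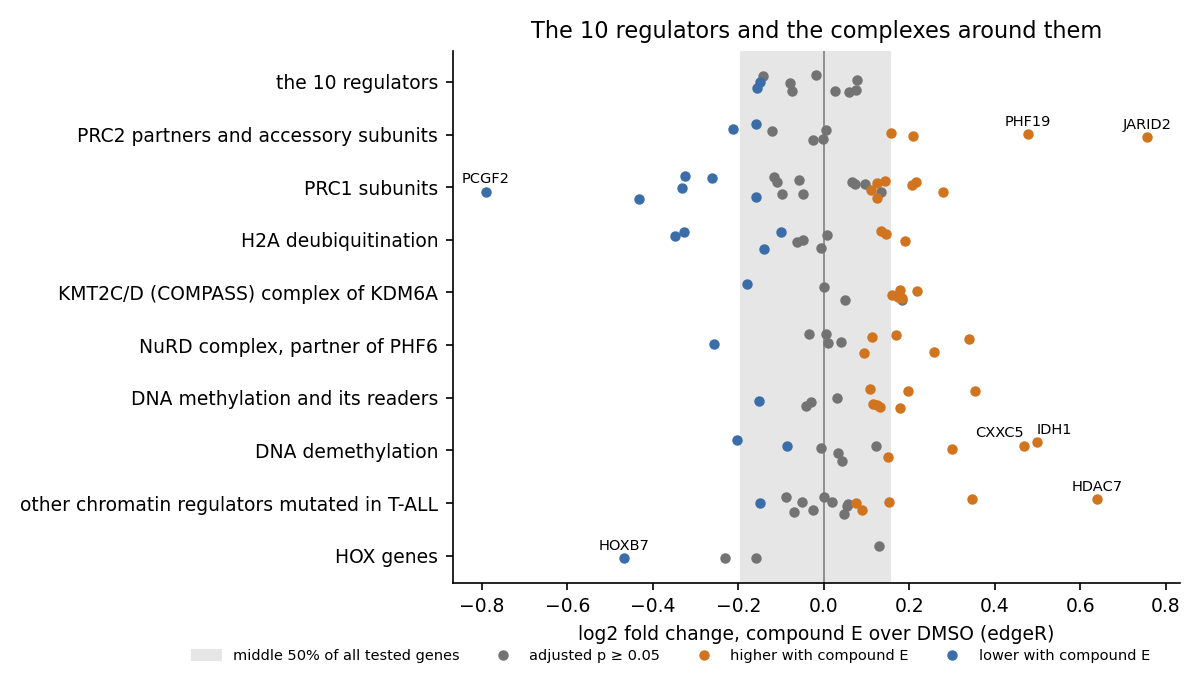
Log2 fold change of each tested gene, compound E over DMSO, by group of genes, with calls higher in orange, calls lower in blue and the rest in grey. The 10 regulators of the top row lie between -0.16 and 0.08, while JARID2 at 0.76, HDAC7 at 0.64 and PCGF2 at -0.79 lie farthest out among the genes around them. The grey band runs between the quartiles of all tested genes, -0.19 to 0.16.

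HOX genes, the classical targets of Polycomb silencing, were mostly silent in both groups. Of 39, 23 had 0 counts in all libraries and 4 were tested. HOXB3 had 14.9, 15.1 and 13.8 CPM with DMSO and 13.2, 13.5 and 12.7 CPM with compound E, and HOXB4 had 13.0, 12.5 and 13.4 and then 14.1, 13.1 and 15.4 CPM. Neither passed, nor did HOXC4. HOXB7 fell 1.38-fold from 4.71 ± 0.271 to 3.41 ± 0.126 CPM (SD, n = 3; adjusted p = 0.0136 in edgeR), a call lost with DESeq2 (0.111) and without DMSO replicate 2 (0.0602). HOXA9 and HOXA10, often active in other subtypes of T-ALL, had 0 counts in every library. Of the 4 tested HOX genes 25% were called, beside 38.3% of all tested genes. With 18.9% of all tested genes called higher, 0 of 4 is too few genes to read as a result.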

How the data were processed

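RNA of 6 MOLT-3 libraries was sequenced after selection of polyadenylated RNA, per the labels. The submitters' processing notes name HISAT2 2.0.5, featureCounts 1.5.0-p3 and DESeq2 1.16.1, with no role or order; strand setting and treatment of multiply matching reads are not stated there. The deposited counts are whole reads per gene, not normalised by the authors. The FPKM deposited by the authors equal count divided by gene length and 1 scaled depth per library. All 58735 genes matched GENCODE release 29 in position and name, so coordinates are on GRCh38.

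Counts were filtered (filterByExpr), TMM scaled and tested in R 4.3.3 with edgeR 4.0.16, treatment as the only term, after tests on simulated data. The standard error is the log2 fold change divided by the square root of F. Alternatives were other scalings, filters, DESeq2 1.42.0, limma 3.58.1 (voom, and log2 FPKM with pseudocounts of 1 and 0.1), a replicate block and each library left out. Named genes are the 10 members, per list the up to 3 called genes of smallest p per direction, and genes most like EZH1. Uncalled list genes, RBBP4, MBD2, MBD4, RAG1, PECAM1 and the levels of TET3, IDH1 and IDH2 were chosen after their values were seen. One gene that the rule names is not reported here. Members and lists were chosen with earlier results of these data known.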

Additional observations from a re-analysis of the deposited data

How the results depend on the processing

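EZH1 and PHF6 passed under all 17 alternatives, and EED, KDM6A, SUZ12, TET1 and TET2 passed under none that gave a value. EZH2 passed with limma-voom (0.059) and with limma on FPKM (0.065 with a pseudocount of 1, filtered or not, and 0.066 with 0.1). KDM6B passed with upper quartile scaling and with the stricter filter (-0.094 and -0.091), and ranged from -0.11 to -0.057 with 1 library left out. With 1 library left out DNMT3A ranged from 0.058 to 0.088, SUZ12 from -0.031 to 0.0035, its sign turning without compound E replicate 3, and TET2 from -0.26 to 0.057, with 0.022 without DMSO replicate 1. TET2 had no value under the stricter filter or on filtered FPKM. The genes called numbered 4002 with limma on unfiltered FPKM, and 5 DNA methylation genes were called in each of the 3 analyses of FPKM. The HOX genes called numbered 2 without a filter, 2 on unfiltered FPKM, 0 with the stricter filter, 0 with DESeq2 and 0 to 1 with 1 library left out. A share of 2 genes within a library cancels any library scaling, so no scaling tests the shares. Of the 42 genes named from the lists, 38 passed under all alternatives that gave a value. The cause of these differences was not tested.

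Same-numbered libraries did not deviate together (correlations of -0.015, -0.089 and -0.092). Differently numbered pairs had correlations of -0.070 to 0.15. With 3 libraries per group these values cannot show whether the numbers mark shared cultures. With the replicate block 6138 genes were called, EZH1 stood at -0.16 and PHF6 at -0.15, both called, and the other 8 were not.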
